A study of Mus musculus with 7 samples.

Results

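The genes described here are the heat shock and DNAJ chaperone genes of the mouse, taken as every protein-coding gene whose symbol starts with Hspa, Hspb, Hsp90, Hsph, Dnaja, Dnajb or Dnajc, together with Hspd1 and Hspe1. This rule gave 74 of the 21938 protein-coding genes of the annotation. Binding was read from ChIP-seq, which sequences the DNA that an antibody recovers with a protein, in gastrocnemius, a predominantly fast muscle of the calf. The muscles came from wild type male C57BL/6J mice of 5 months, kept on a light-dark cycle and standard chow. RNA polymerase II (RNAP2) and the transcriptional activator BMAL1 were immunoprecipitated at Zeitgeber time (ZT) 4, the repressor REV-ERBα at ZT 8, in 2 replicates each, and the series lists 1 input library. Each factor was thus seen at 1 time of day and in 1 genotype, so that factor and time cannot be told apart and no test across samples was run. All values are descriptions of these 6 lists of peaks.

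Chaperones hold unfolded proteins and help them reach or regain their shape. HSP70 proteins bind and release clients in an ATP cycle that J-domain proteins (DNAJ) start and nucleotide exchange factors, the HSP110 proteins among them, reset, while HSP90 acts later on maturing clients and the small heat shock proteins hold clients without ATP. In muscle they are known for guarding the sarcomere, where contraction strains its proteins, and many of the genes are induced by the heat shock factor HSF1 or, for those of the endoplasmic reticulum (ER), by the unfolded protein response.

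A gene was given an RNAP2 region when peaks of both replicates overlapped by at least 1 bp and the merged region reached within 10 kb of an annotated transcription start site (TSS). The strength of a peak is its −log10 p against input at the summit, and the strength of a region is the lower value of the 2 replicates. Strength rises with sequencing depth as well as with occupancy, and it is no measure of transcript level. In whole muscle, fewer cells of a type and less binding per cell cannot be told apart. The 6 lists held between 28881 and 177669 peaks, and the second BMAL1 list was the longest. All 8 skeletal muscle markers examined, such as Acta1 and Ckm, had an RNAP2 region and 0 of 8 markers of other organs had one, while of 8 markers of satellite, endothelial, immune, fat and stromal cells 1, the collagen gene Col1a1, had one.

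An RNAP2 region lay within 10 kb of most of the chaperone genes at ZT 4. Of the 74 genes, 53 (71.6%) had an RNAP2 region in both replicates, against 38% of the 21864 other protein-coding genes. These counts include regions nearest to a neighbouring gene. Counting each region only for the gene with the nearest TSS gave 42 of the 74 genes, against 29.7% of the others. In single lists, 69 of the 74 had a peak within 10 kb in replicate 1, where 73% of the other genes had one, and 73 had a peak in replicate 2, against 83.9%. The strongest regions of the 53 genes had a median strength of 6.39, against 4.73 for the other 8317 genes with a region, and ranged from 1.31 to 46.5. A −log10 q of at least 1.3 in both lists, which corrects for the number of positions tested, was reached at 37 of 53 genes (69.8%), against 48.8% of the others. The median width of the strongest region was 910 bp, against 661 bp, and the median of the lower fold enrichment over input was 4.3, against 3.47. Chaperone genes had slightly fewer annotated TSSs than the other genes, with medians of 4 and 5, and the windows searched around them covered a median of 23.3 and 27.9 kb.

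**Figure D1:**
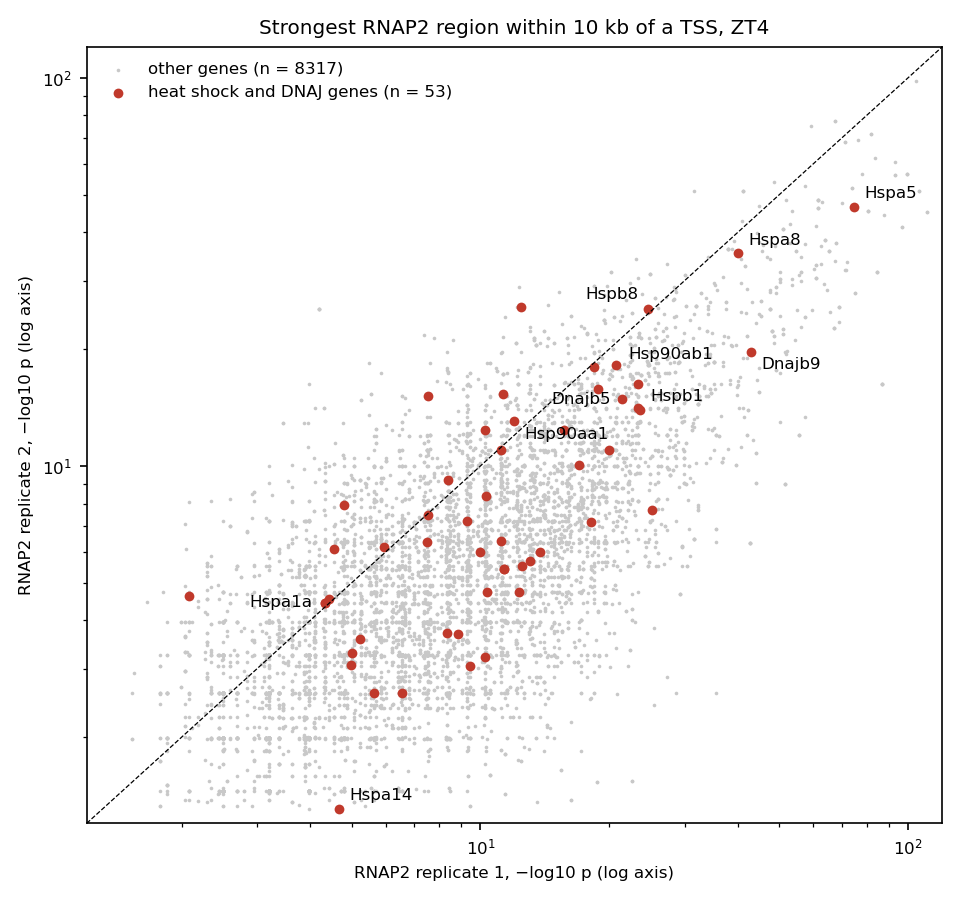
−log10 p of the strongest RNAP2 region within 10 kb of a TSS in replicate 1 (x axis, log scale) and replicate 2 (y axis, log scale), for 53 heat shock and DNAJ genes (red) and 8317 other genes (grey), with the dashed line at equal values. Among the red points Hspa5 lies furthest up at 74.5 and 46.5, and most red points lie below the line, as do most grey ones.

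When all 8370 genes with a region were ranked by strength, 13 of the 53 fell in the top 10% and 21 in the top 25%. Any region within 10 kb counted, for chaperone and other genes alike. In the top 10%, Dnajb14 at rank 649 was placed by a region nearest to H2afz. In the top 25%, Dnajc4 at rank 1118 and Dnajc25 at rank 1284 were placed by regions nearest to Fkbp2 and Gm20503, of which the second also covered a TSS of Dnajc25. Peaks were higher in replicate 1 than in replicate 2 at 39 of the 53 genes (73.6%), against 81.1% of the others, so the order of the replicates was shared with the rest of the genome. The medians of the members were 11.2 and 7.18 in the 2 replicates.

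RNAP2 sat at the start of most of the genes, as it did in most other genes. At 45 of 53 genes (84.9%) a region had the summits of both replicates within 1 kb of a TSS, against 78.6% of the other genes. For the strongest region of each gene, both summits lay within 100 bp of a TSS at 26 genes and within 300 bp at 34. The replicates placed that summit within 100 bp of each other at 38 genes and more than 300 bp apart at 6. Measured from the centre of the strongest region, the nearest TSS belonged to the gene itself at 37 genes (69.8%), against 72% of the other genes, and to a neighbour at the remaining 16. At 5 of these 16, Hspe1, Dnajb11, Hspbap1, Hspa14 and Dnajc25, the region also covered a TSS of the chaperone gene, so that it cannot be assigned to either. One region was counted at 34 genes, and 2 or more at 19, and the median was 1 region per gene in both chaperone and other genes. The counts of summits within 100 and 300 bp, and of distances between replicates, were made for the chaperone genes only.

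**Figure D2:**
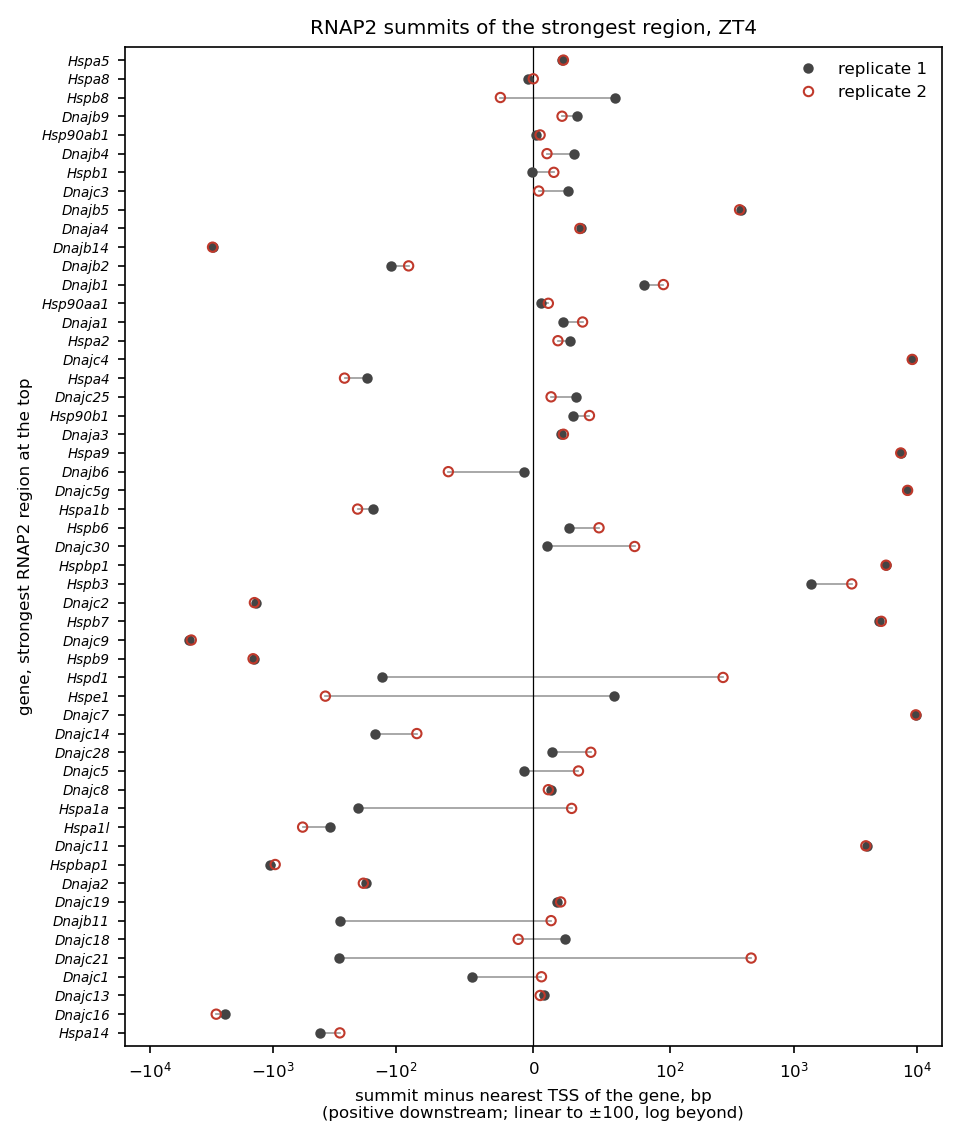
Distance from the nearest TSS of the gene to the RNAP2 summit of its strongest region, in bp (x axis, linear to ±100 and log beyond), in replicate 1 (filled) and replicate 2 (open) for 53 genes ordered by strength. Most summits lie close to 0, and the pairs far to either side, such as Dnajb14 at −3092 and −3093 bp, lie at the TSS of a neighbouring gene or beyond the end of the gene.

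The strongest RNAP2 regions of the set were those of Hspa5 and Hspa8, both HSP70 genes. Hspa5 encodes BiP, the HSP70 of the ER lumen and a classical target of the unfolded protein response. Its region at chr2:34770908-34772446 (mm10) reached 74.5 in the first replicate and 46.5 in the second on the −log10 p scale, with fold enrichments of 24.9 and 15.9. The summits lay at 21 and 22 bp from a TSS, in the 5′ untranslated exon, and the gene ranked 37 of 8370. Neither REV-ERBα list held a peak within 10 kb of Hspa5, and the only BMAL1 peaks there were in replicate 2, the strongest at 3.6. The bases just before the annotated 5′ end of Hspa5, chr2:34771840-34771969 on the plus strand, are given because they lie within the region with the strongest RNAP2 peaks of the set. Capitals mark the letters CCAAT, read on either strand.
Hspa5: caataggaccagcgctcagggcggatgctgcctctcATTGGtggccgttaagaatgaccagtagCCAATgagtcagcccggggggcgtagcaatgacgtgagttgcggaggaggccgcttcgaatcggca
The letters CCAAT were searched after the values had been seen, and 39% of the 77 promoter windows of chaperone genes held them, against 37.8% of all 20150 windows.

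Hspa8 encodes HSC70, the constitutive HSP70 of the cytosol. Its RNAP2 peaks reached 39.9 and 35.3, with summits at −4 and 0 bp, and the gene ranked 85. All 6 cytosolic HSP70 genes had a region, and their strengths ran from 1.31 to 35.3. Hspa2, known mainly from the testis but also present in other tissues, had peaks of 20 and 11 with summits at 27 and 18 bp. At the low end, Hspa14 had 4.68 and 1.31, in a region that also covers a TSS of its neighbour Cdnf.

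The stress-inducible pair Hspa1a and Hspa1b had far weaker regions than Hspa8. Hspa1b had −log10 p of 9.29 and 7.22 with summits at −155 and −206 bp, both upstream of the TSS. The region at Hspa1a, with 4.32 and 4.44 and summits at −205 and 28 bp, is shared with the divergent germ cell gene Hspa1l, whose TSS lies 169 bp from it. The 2 genes are near-identical copies, and 250 bases before each TSS differ at 3 positions, shown in capitals, which bears on how reads there could be placed.
Hspa1a, chr17:34972157-34972406, minus strand: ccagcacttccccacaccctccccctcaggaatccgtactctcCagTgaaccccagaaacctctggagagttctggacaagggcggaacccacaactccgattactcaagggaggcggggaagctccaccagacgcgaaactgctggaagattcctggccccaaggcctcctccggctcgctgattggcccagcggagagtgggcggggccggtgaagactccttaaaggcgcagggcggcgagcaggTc
Hspa1b, chr17:34959239-34959488, minus strand: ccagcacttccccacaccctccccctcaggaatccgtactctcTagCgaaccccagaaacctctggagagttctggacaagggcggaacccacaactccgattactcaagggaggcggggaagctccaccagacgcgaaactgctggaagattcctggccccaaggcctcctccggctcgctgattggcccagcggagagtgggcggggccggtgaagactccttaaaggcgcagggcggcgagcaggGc
Of the 50-base windows in the 500 bp to each side of the TSS, 477 of 952 (50.1%) occur identically in the other gene. Reads that map to both copies were removed before the peaks were called, so the values of this pair are uncertain.

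Hspa9 encodes mortalin, the mitochondrial HSP70. Its strongest region, with 25.1 and 7.7, lies 7433 bp downstream of a TSS and is nearest to Etf1, whereas the region next to its own TSS had 10.4 and 6.82 with summits at −437 and −482 bp. Hspa13, the third organelle HSP70, had no region, and only replicate 2 listed peaks near it, 1.99 at most. Of the HSP110 genes, Hspa4 had peaks of 10.3 and 12.4 just upstream of its TSS, while Hspa4l and Hsph1 had no region. Hsph1 is among the most heat-responsive genes known, and its strongest RNAP2 peak within 10 kb was 1.99, at 4619 bp from a TSS, in replicate 2, while replicate 1 listed none. The divergent genes Hspa12a and Hspa12b had no region either, although replicate 1 listed a peak of 11.4 at −85 bp of Hspa12a.

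All 3 HSP90 genes had RNAP2 at the TSS in both replicates. Hsp90ab1, the constitutive cytosolic form, reached 20.7 and 18.2 with summits at 2 and 5 bp. Hsp90aa1, the inducible form, had 12 and 13.1 with summits at 6 and 11 bp, and Hsp90b1 (GRP94), the ER form, had 8.4 and 9.19 with summits at 29 and 41 bp. In each of the 3 genes the replicates lay closer to each other than Hsp90ab1 lay to Hsp90b1.

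Of the 7 small heat shock protein genes, 6 had a region. Hspb8, whose product works with BAG3 in the removal of damaged sarcomere proteins, had the strongest, with 24.6 and 25.3 over 2235 bp and summits at 60 and −24 bp. Hspb1 (HSP25) followed with 23.4 and 16.2 and summits at −1 and 15 bp, and Hspb6 (HSP20), which is abundant in muscle, with 18.1 and 7.18. Hspb3 and Hspb7, both muscle-enriched, had their strongest regions downstream of the single annotated TSS. For Hspb3 the values were 9.99 and 6 with summits at 1386 and 2966 bp, and for Hspb7 they were 5.94 and 6.19 with summits at 4943 and 5153 bp. Inside Hspb3, replicate 2 also listed a peak of 6.35 at 292 bp from the TSS, which was part of no region in both replicates. Closer to the TSS of Hspb7, a region inside the gene had 3.97 and 2.6 and one upstream had 2.5 and 1.45. Hspb2 had no region, and its strongest RNAP2 peak was 3.35 in replicate 1, at −5048 bp, with none in replicate 2. Hspb9, a testis gene, was counted only through a region nearest to its neighbour Kat2a.

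The mitochondrial chaperonin genes Hspd1 (HSP60) and Hspe1 (HSP10) are transcribed in opposite directions from one stretch of DNA and share one RNAP2 region, chr1:55087511-55088574. The −log10 p there was 11.3 and 5.41. The summits lay 617 bp apart, in replicate 1 at −130 bp from Hspd1 and 59 bp into Hspe1, and in replicate 2 at 268 bp into Hspd1. The peak lists cannot assign this polymerase to either gene.

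All 4 DNAJA genes had a region, and Dnaja4 was the strongest at 23.4 and 14.1. Dnaja1, a cochaperone of cytosolic HSP70, had 11.3 and 15.3 with summits at 22 and 36 bp. Among the DNAJB genes, 8 of 13 had a region. Dnajb9 (ERdj4), an ER cochaperone of BiP induced by the unfolded protein response, had 42.9 and 19.6 with summits at 32 and 21 bp. Dnajb4 had 18.5 and 18 at one TSS and 8.34 and 16.2 at another. Dnajb1 (HSP40), the main inducible partner of HSP70, had 15.7 and 12.4 with summits at 81 and 95 bp. Dnajb2 had 12.4 and 25.7, one of the genes with the higher value in replicate 2. Dnajb6, mutated in a limb-girdle muscular dystrophy, had 7.52 and 15.1, again higher in replicate 2. Dnajb5 had 2 strong regions, one at its first TSS with 17.9 and 12.6 and summits at 36 bp in both replicates, and a broad one of 2734 bp at an internal TSS with 21.5 and 14.8. The region counted for Dnajb14, with 23.6 and 13.9, lies about 3 kb upstream and is nearest to the histone gene H2afz. The 5 DNAJB genes without a region were Dnajb3, Dnajb7, Dnajb8, Dnajb12 and Dnajb13, of which all but Dnajb12 are known from germ cells.

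The DNAJC family is the largest and most diverse, and 19 of its 28 genes (67.9%) had a region, against 38% of the other protein-coding genes. Their median strength of 4.73 equalled that of the other genes with a region. The strongest regions of Dnajc2, Dnajc4, Dnajc5g, Dnajc7, Dnajc9, Dnajc16 and Dnajc25 were nearest to another gene. Dnajc3 (p58IPK), an ER cochaperone induced by the unfolded protein response, was the strongest, at 18.9 and 15.8 with summits at 25 and 4 bp. Dnajc5, the cysteine string protein of secretory vesicles, had 4.55 and 6.12 with summits at −7 and 33 bp. Dnajc7, which links HSP70 and HSP90, had a weak region at its own TSS with 4.11 and 3.05, and its strongest, with 4.79 and 7.95, was 9426 bp away and nearest to Cnp.

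By location, 10 of 13 ER genes, 8 of 9 mitochondrial genes and 4 of 9 germ cell genes had a region, where 38% of the other protein-coding genes had one, with median strengths of 9.24, 5.41 and 6.51. Of 11 genes listed as heat-inducible, 10 had one, with a median of 11.6, and Hsph1 was the exception. The list includes Hspa8 and Hsp90ab1, which are mainly constitutive, and without these 2, left out after the values had been seen, 8 of 9 had a region, with a median of 9.26. Both counts include Hspd1 and Hspe1 through a single shared region, and Hspa1a through a region shared with Hspa1l. Of the 4 germ cell genes with a region, Hspa1l, Hspb9 and Dnajc5g were counted through a region nearest to another gene, and Hspa2 through its own. The ER genes Dnajb11, Dnajb14, Dnajc16 and Dnajc25 were also counted through regions nearest to another gene. Those of Dnajb11 and Dnajc25 covered a TSS of the chaperone gene as well. Among the mitochondrial genes, the strongest region of Hspa9 was nearest to Etf1, and Hspd1 and Hspe1 both entered with 5.41 from their shared region. The distance limit was read from the RNAP2 region closest to a TSS of each gene. The last such regions inside it were those of Dnajc5g, 7937 bp from a TSS and nearest to Trim54, and of Hspbp1 at 4905 bp, nearest to Ppp6r1. The first ones outside were at 11044 bp for Dnajc6 and 12522 bp for Dnajb3.

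For the 21 genes without a region, 15 had a peak in each list that did not overlap, 5 had one in replicate 2 alone and 1, Hspb2, in replicate 1 alone. Among those with a peak in 1 list alone, Hspb2 at 3.35 was the strongest, followed by 1.99 at Dnajb7, Dnajb13, Hspa13 and Hsph1. At this level the 2 lists differ in length, and a peak in 1 list was not counted as RNAP2 occupancy.

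**Figure D3:**
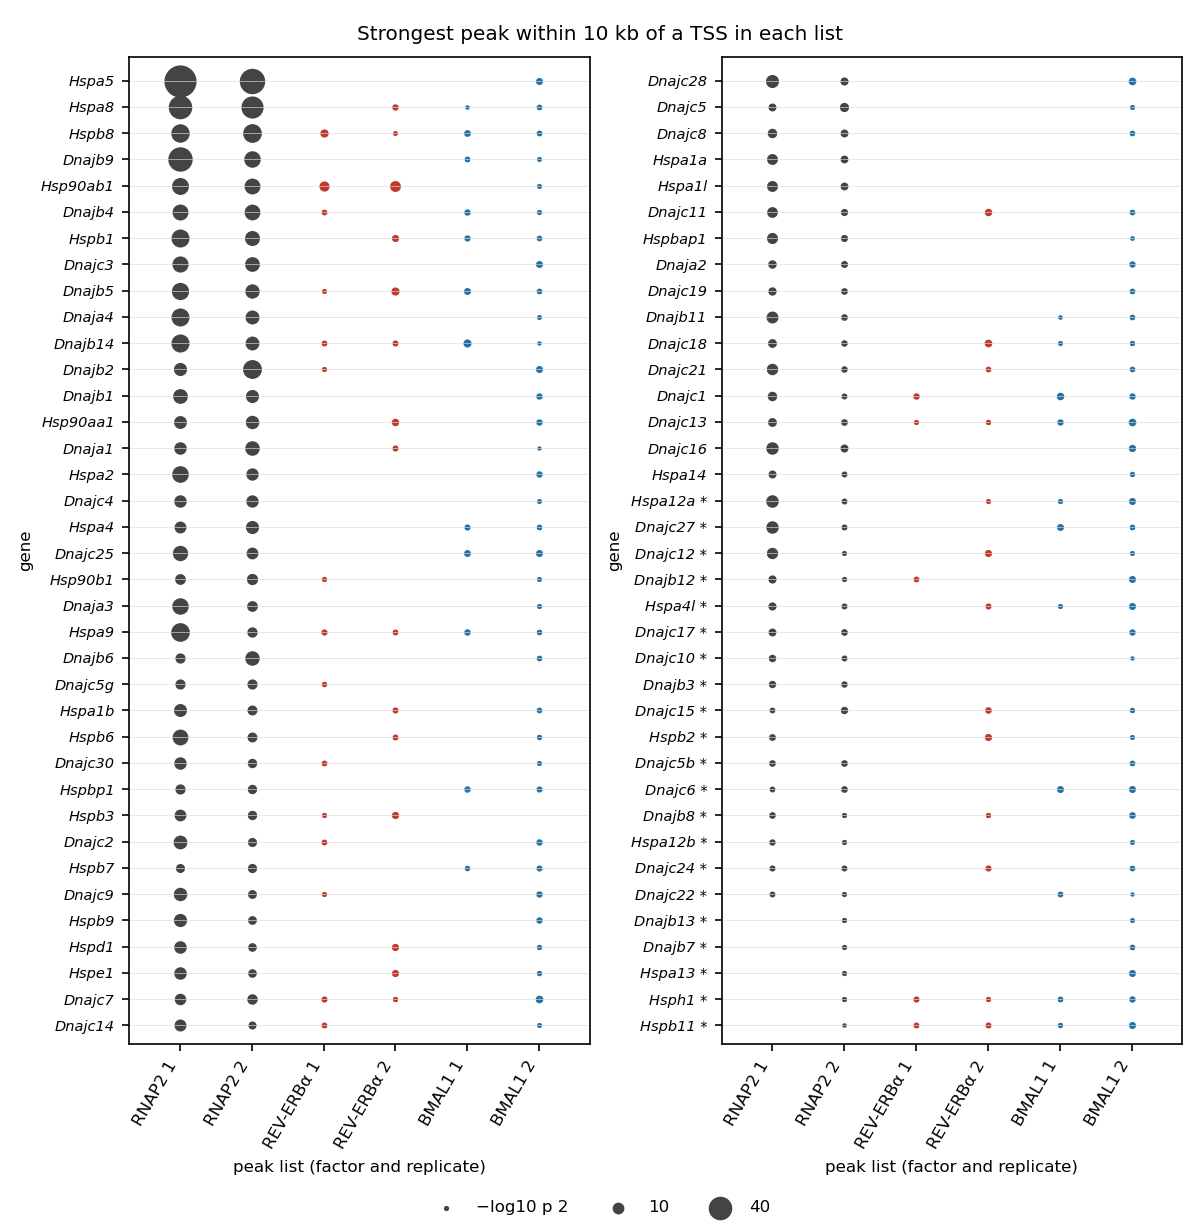
Strongest peak within 10 kb of a TSS in each of the 6 lists (columns, factor and replicate) for the 74 genes (rows, ordered by RNAP2 strength), with the dot area proportional to −log10 p and no dot where no peak was listed. An asterisk marks the 21 genes without an RNAP2 region in both replicates, and outside the RNAP2 columns the largest dots are those of REV-ERBα at Hsp90ab1.

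A fixed list of 57 other proteostasis genes was read the same way. Of these, 38 (66.7%) had an RNAP2 region, with a median strength of 5.42. The strongest was Calr, the ER lectin chaperone calreticulin, at 41.2 and 51.1, followed by Pdia3, a disulfide isomerase of the ER, at 23.4 and 14.1. Next came the ubiquitin ligase Stub1 (CHIP), at 15.9 and 11, and the myosin chaperone partner Smyd1, at 10.9 and 17.6.

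Heat shock elements, the sites at which HSF1 binds, are arrays of the units GAA and TTC in alternating orientation, spaced by 2 bases. Promoter windows of 300 bases, from 250 before to 50 after a RefSeq TSS (GRCm38), were at hand for 60 of the 74 genes, in 77 windows. Windows were not at hand for Dnajc2, Dnajc5, Dnajc5b, Dnajc11, Dnajc12, Dnajc18, Dnajc22, Dnajc30, Hsp90aa1, Hsp90ab1, Hspa8, Hspa9, Hspa13 and Hspb2. A perfect array of 3 units was found in 6 windows (7.79%), those of Dnajb6, Hspd1, Hspe1 and Hsph1, against 0.501% of all 20150 windows. The 6 windows hold only 3 arrays, since windows overlap and each array was counted in more than 1 of them. The 3 arrays are shown with their units in capitals, Hspd1 and Hspe1 sharing 1 between them in which 2 matches overlap.
Dnajb6, chr5:29735844-29735872, plus strand: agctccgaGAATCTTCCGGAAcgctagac
Hspe1, chr1:55088053-55088082, plus strand: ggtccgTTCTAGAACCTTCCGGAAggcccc
Hsph1, chr5:149636280-149636308, minus strand: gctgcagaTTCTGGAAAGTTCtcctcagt
Dnajb6, Hspd1 and Hspe1 had an RNAP2 region, and Hsph1 had none. Within 150 bp of the RNAP2 summit in replicate 1, such an array lay in 3 of the 51 distinct regions (5.88%), those of Hspa8, Hsp90aa1 and Dnaja1, against 46 of all 10752 RNAP2 regions (0.428%). A weaker or shorter array would have been missed by this search.

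The E-box CACGTG, the preferred site of BMAL1 and CLOCK, was found in 10.4% of the 77 windows, against 8.03% of all windows. The hexamer AGGTCA, to which REV-ERBα binds, was in 19.5% against 14.4%, and CAGCTG, an E-box used by myogenic factors, in 19.5% against 15.7%. The promoters of genes with an RNAP2 region were rich in GC, with a median of 62.7% in chaperone genes. For comparison, it was 61.3% in other genes with a region and 59% in chaperone genes without one. Their median ratio of observed to expected CpG was 0.848, against 0.769 in other genes with a region.

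REV-ERBα and BMAL1 were found at few chaperone genes. Of the 53 genes with an RNAP2 region, 2 (3.77%), Hsp90ab1 and Dnajb5, had a REV-ERBα region in both replicates, against 7.76% of the other 8317 genes. A BMAL1 region in both replicates was present at 1 gene (1.89%), Hspb8, against 6.54%. A site shared by the clock factors, with a peak in 3 or all 4 of their lists, was present at 0 of the 53, against 2.62%. With 53 genes, the share among other genes corresponds to only a handful of genes, so differences of 1 or 2 genes carry little weight. In genes strongly occupied by RNAP2 these regions were more frequent. A comparison within the top 10% by RNAP2 strength was added after the values had been seen. It gave 2 of 13 chaperone genes with a REV-ERBα region, against 22.1% of 825 other genes, and 1 of 13 with a BMAL1 region, against 10.5%. The 13 include Dnajb14, placed there by a region nearest to H2afz. All 8 muscle markers had a REV-ERBα region and 7 a BMAL1 region. Of the 8 markers of other organs, 1 had a REV-ERBα region and 0 a BMAL1 region. The 1 gene was Ttr, with 21.7 and 30.8 although it had no RNAP2 region. The highest values among the muscle markers were those of Ckm, at 20.5 and 27.5. Of the 38 other proteostasis genes with an RNAP2 region, 3 had a REV-ERBα region, 2 a BMAL1 region and 1, Stub1, a shared site.

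**Figure D4:**
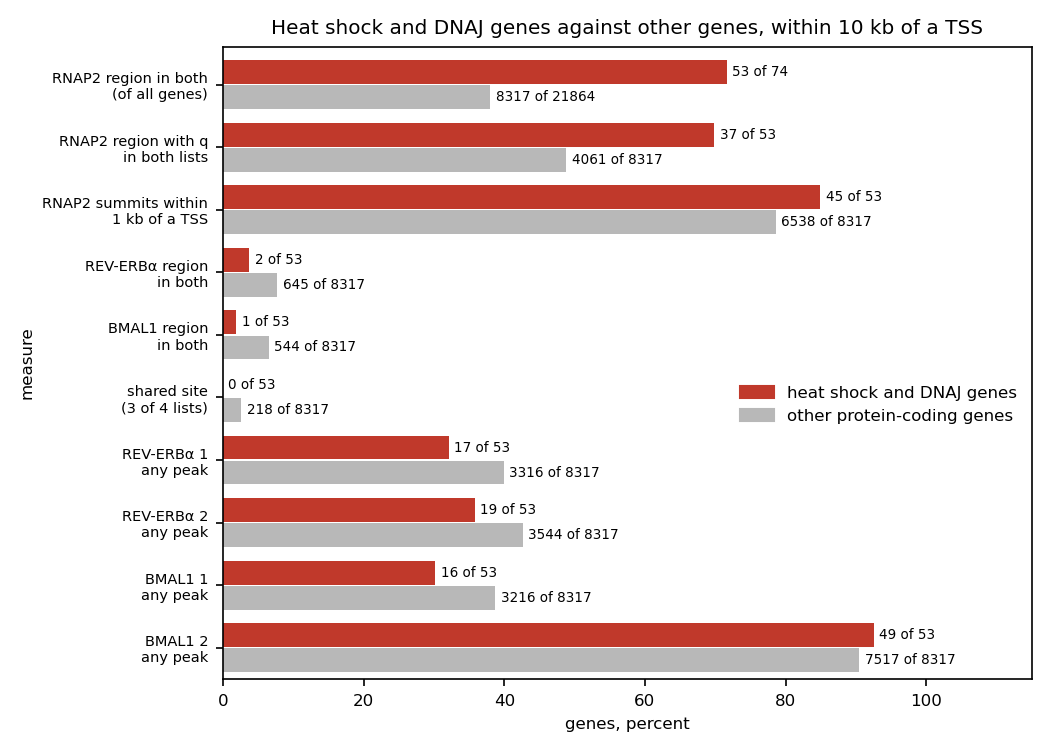
Share of genes in percent (x axis) with each kind of region or peak (y axis) among heat shock and DNAJ genes (red) and other protein-coding genes (grey), with the number of genes beside each bar. The red bars are longer for the RNAP2 measures, at 71.6% against 38% for the first, and shorter for the REV-ERBα and BMAL1 regions present in both replicates.

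Single lists held many more peaks near these genes. At least 1 REV-ERBα peak lay within 10 kb of 17 of the 53 genes in replicate 1, against 39.9% of other genes, and of 19 in replicate 2, against 42.6%. For BMAL1 the numbers were 16 in replicate 1, against 38.7%, and 49 in replicate 2, against 90.4%, where the longer list put a peak near nearly every gene. The strongest BMAL1 peak near any chaperone gene was 4.8 in replicate 1 and 4.25 in replicate 2.

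The REV-ERBα region at Hsp90ab1 was the clearest clock factor site of the set. It covers chr17:45573260-45574652, a length of 1393 bp, and reached a −log10 p of 7.49 and 8.56 in the 2 replicates, with fold enrichments of 4.02 and 4.4. It ranked 165 of 1263 REV-ERBα regions, whose median strength was 2.5, and passed the −log10 q of 1.3 in both lists. The summits at −584 and −364 bp lay upstream of the RNAP2 summits at 2 and 5 bp, and the region overlapped the end of the RNAP2 region. The REV-ERBα region also covered a weaker RNAP2 region, with 4.11 and 1.98 and summits at −890 and −1098 bp. The 2 proteins were mapped at different times of day, so the overlap is one of position, not of time. BMAL1 had no peak within 10 kb in replicate 1 and 1.87 at most in replicate 2. The 201 bases around each summit are shown on the strand of the gene, with the summit base in capitals.
Hsp90ab1 summit of replicate 1, chr17:45573755-45573955, minus strand: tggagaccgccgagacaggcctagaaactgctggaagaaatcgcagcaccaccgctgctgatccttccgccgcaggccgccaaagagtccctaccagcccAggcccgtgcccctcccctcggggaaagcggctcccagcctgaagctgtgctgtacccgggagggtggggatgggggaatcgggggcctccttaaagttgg
Hsp90ab1 summit of replicate 2, chr17:45573535-45573735, minus strand: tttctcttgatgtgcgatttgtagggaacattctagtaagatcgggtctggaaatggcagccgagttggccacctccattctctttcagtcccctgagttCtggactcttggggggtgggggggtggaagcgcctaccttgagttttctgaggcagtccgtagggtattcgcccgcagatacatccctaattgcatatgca
Neither window holds AGGTCA on either strand, which 12.6% of the 1263 REV-ERBα regions have within the same distance of the replicate 1 summit.

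At Dnajb5, 2 weak REV-ERBα regions were present. One, at chr4:42952370-42954408 inside the gene, had 1.83 and 4.78 and coincided with the broad RNAP2 region at the internal TSS. The other, downstream of the gene, had 1.88 and 2.23. It overlapped an RNAP2 peak of 18.6 in replicate 1, where RNAP2 replicate 2 listed none. The 2 REV-ERBα regions ranked 1028 and 1019 of 1263, and neither passed the −log10 q of 1.3 in both lists.

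The BMAL1 region at Hspb8 covers chr5:116427105-116428347, upstream of the gene, with 3.31 in replicate 1 and 2.48 in replicate 2 and summits at −5066 and −5226 bp. It ranked 363 of 2742 BMAL1 regions, whose median was 1.87, did not reach a −log10 q of 1.3 in both lists, and overlapped a weak RNAP2 region with 6.55 and 1.99. The window around the replicate 1 summit is shown, with the summit base and the letters AGGTCA and CCAAT in capitals.
Hspb8 summit of replicate 1, chr5:116427830-116428030, minus strand: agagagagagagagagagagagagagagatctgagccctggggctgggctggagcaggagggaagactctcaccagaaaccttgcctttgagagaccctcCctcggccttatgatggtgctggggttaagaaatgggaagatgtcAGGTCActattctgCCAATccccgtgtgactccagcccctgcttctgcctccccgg
The window holds no CACGTG, which 2.66% of BMAL1 regions have in this window, and it opens with a run of AG repeats of 28 bases. In the window around the replicate 2 summit the run is 50 bases long. The part of such repeats in the peak was not tested.

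**Figure D5:**
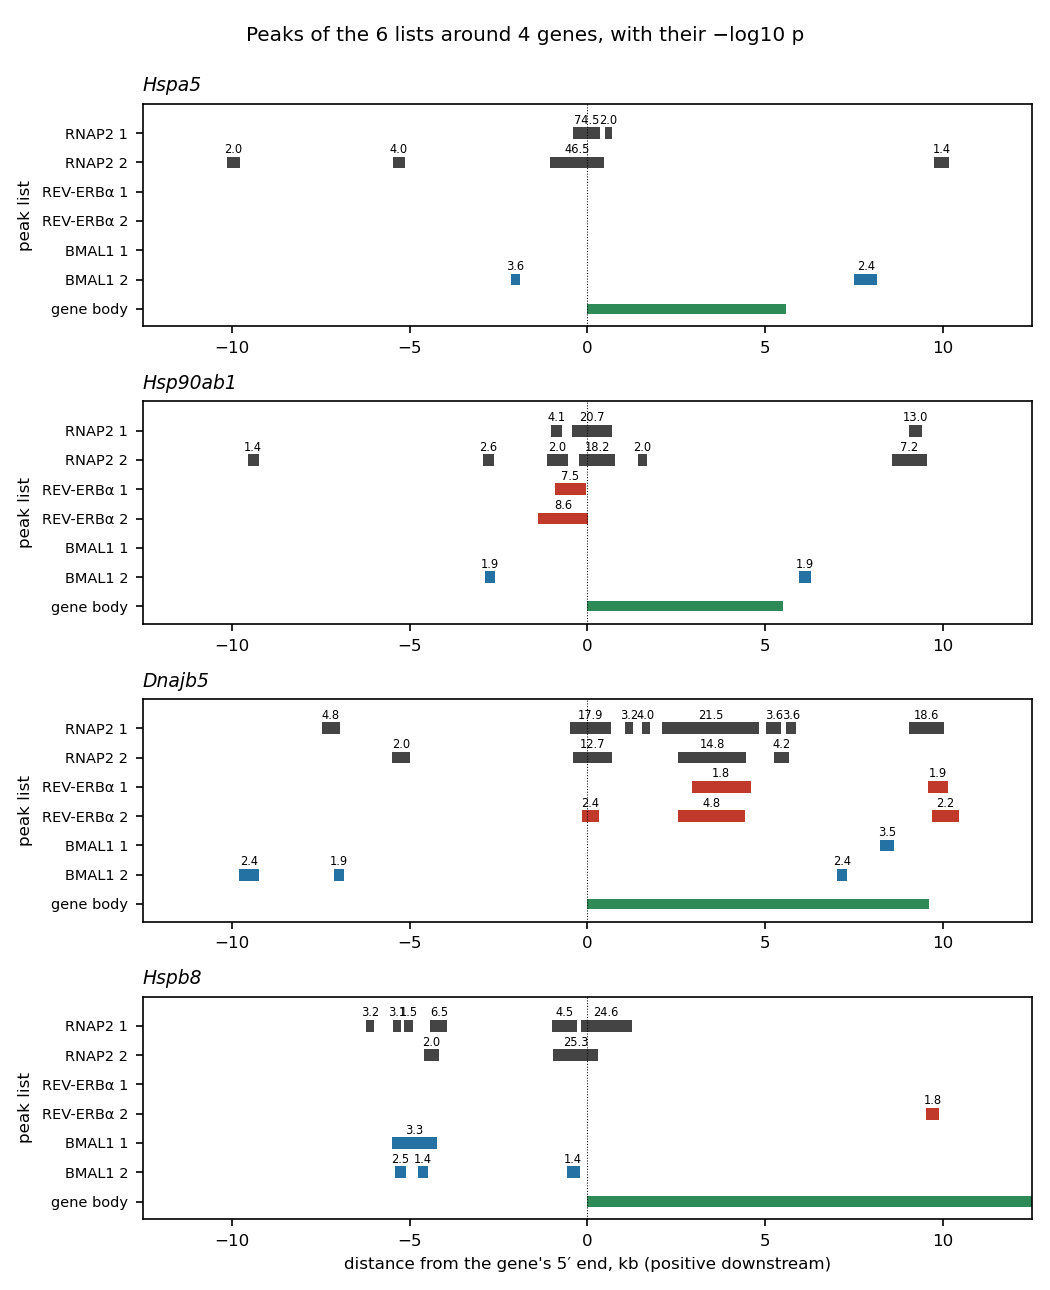
Peaks of the 6 lists (rows, factor and replicate) within 12 kb of the 5′ end of 4 genes, placed by distance from it in kb (x axis, positive downstream), with the −log10 p above each peak and the annotated gene in green. At Hsp90ab1 the peaks of both REV-ERBα replicates overlap the upstream end of the RNAP2 peak, with their summits upstream of its summit. At Dnajb5 they lie over the internal RNAP2 region, and at Hspb8 the BMAL1 peaks lie about 5 kb upstream.

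REV-ERBα peaks close to a TSS differed between the 2 lists. A summit within 1 kb of a TSS was listed for 5 of 53 genes in replicate 1, against 12% of other genes, and for 10 in replicate 2, against 13.4%. Within the top 10% by RNAP2 strength, the numbers were 3 of 13 against 22.8% and 4 of 13 against 25%. Of the 11 genes listed as heat-inducible, 8 had such a peak in replicate 2 and 1 in replicate 1, which was Hsp90ab1. Hspd1 and Hspe1 were both counted through 1 shared peak. The list was chosen with earlier results of these data known. The shares of other genes above are not matched to it, since it includes Hsph1, which had no RNAP2 region. Without the mainly constitutive Hspa8 and Hsp90ab1, the counts were 6 of 9 and 0 of 9. In replicate 2 the peaks were 3.75 at Hspb1, at −204 bp, 3.75 between Hspd1 and Hspe1, 2.98 at Hspa8, 2.64 at Hspa1b, 2.09 at Hsph1 and 1.95 at Hsp90aa1, beside the 8.56 at Hsp90ab1. The lists are of nearly equal length, with 28881 and 29934 peaks, and except at Hsp90ab1 no such peak was seen in replicate 1, so these are single-replicate observations.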

How the data were processed

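ChIP-seq libraries of BMAL1 (ZT 4), RNAP2 (ZT 4) and REV-ERBα (ZT 8) from mouse gastrocnemius were analysed from 6 lists of peaks, 2 replicates per factor. The authors aligned reads to mm10 with BWA, removed duplicates and reads of low mapping quality, down-sampled replicates toward equal read numbers, and ran Macs2 (version 2.1.1 per the submitters' processing notes) on every sample separately with input as control, keeping peaks under a p-value of 0.05. Each deposited peak carries a −log10 p, a −log10 q and a fold enrichment over input (a ratio), which Macs2 computed at the summit for the authors. A deposited score restates the −log10 p, and the authors' score was not used. Reads, input and signal were not used here, so the depth at a peak is unknown and no counting interval is given. Low mapping quality removes reads of near-identical copies such as Hspa1a and Hspa1b.

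Peaks of a factor sharing 1 bp or more became 1 region, and genes and TSSs were taken from GENCODE M21, leaving out mitochondrial DNA. With 1 condition and 2 replicates per factor, members were set beside all other genes by counts and medians, with no test. Motifs were searched as fixed letters on both strands. The named genes are those with a BMAL1 or REV-ERBα region, the 10 strongest RNAP2 regions, 25 preset genes, the strongest with a peak in 1 replicate alone, and those next to the 10 kb limit, and up to 4 of the other proteostasis genes by strength. Others were named after their values were seen. The members and lists were chosen with earlier results of these data known. Alternatives were other distances, stricter thresholds, equal list sizes, other overlap and gene assignment, and each replicate left out. The code, in Python 3.11.15 with pysam 0.24.0 and matplotlib 3.10.9, was tested on simulated peaks.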

Additional observations from a re-analysis of the deposited data

How the results depend on the processing

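The number of chaperone genes with an RNAP2 region was 53, and it lay between 37 (−log10 q of at least 1.3) and 53 (overlap of at least 50% of the shorter peak) under the other settings, with other genes between 18.6% and 36%. With 1 RNAP2 replicate left out it was 69 to 73, against 73% and 83.9% of other genes. The number with a REV-ERBα region fell from 2 to 1 at a −log10 p of at least 3 (others 6.18%) and to 1 at a −log10 q of at least 1.3 (others 4.38%), Hsp90ab1 being the gene left. It ranged from 2 to 19 with 1 replicate left out, since all peaks of the other list then count. The BMAL1 count of 1 became 0 within 1 kb (others 1.86%), 0 at a −log10 p of at least 3 (others 0.816%), 0 at a −log10 q of at least 1.3 (others 0.492%) and 0 with equal list sizes (others 2.14%), and ranged from 1 to 49 with 1 replicate left out. No shared site was found under any setting run. The median RNAP2 strength rose from 6.39 to 10.1 at a −log10 q of at least 1.3, where weaker regions drop out, and was 5.41 and 10.3 with RNAP2 replicate 1 or 2 left out. No paired analysis was possible because the results come from no test.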
